A study of Mus musculus with 11 samples.

Results

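The genes whose proteins write, copy and remove DNA methylation were examined at 9 loci of the mouse genome. They comprised Dnmt3a, Dnmt3b and Dnmt3l, then Dnmt1 and Uhrf1, then Tet1, Tet2 and Tet3, and Tdg. The genes were chosen by name and function, and are 9 of the 49550 genes that the RefSeq table of GRCm38.p6 places on chromosomes 1 to 19 and X. Each locus was the annotated gene with 10 kb on both sides, and its methylation was read by promoter, gene body and peak of each histone mark.

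DNMT3A and DNMT3B are the enzymes that place methyl groups on unmethylated CpG sites, and DNMT3L is a partner without catalytic activity of its own that stimulates them. DNMT1 copies methylation onto the new strand after replication, and UHRF1 brings DNMT1 to hemimethylated sites. The TET enzymes oxidise 5-methylcytosine, and TDG cuts out the later oxidation products so that repair can restore cytosine. Mouse embryonic stem cells express enzymes of both arms, so the genes that control methylation can themselves be read for methylation. CpG islands, the CpG-dense stretches at many gene starts, are usually unmethylated. H3K4me1 marks enhancers and promoter flanks, H3K27me3 is placed by Polycomb repressive complexes, and H3K9me3 marks heterochromatin.

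All samples came from E14, an established mouse embryonic stem cell line of 129/Ola background kept in serum with LIF. The labels named no genetic change or drug for any group, and the line was the only source of cells. By the labels, groups differed in antibody, cell number, run, read length or bisulfite. No run or read length was given for H3K27me3, so a difference in these from the other marks could not be told apart from the mark. In CUT&Tag-BS, an antibody against a histone mark guides a transposase that tags the DNA around it, and the tagged fragments are then bisulfite converted and sequenced, so that each methylation call belongs to a fragment pulled out with the mark. The bisulfite groups were H3K4me1 and H3K9me3 from 250000 cells, each as run 1 with 35 bp and run 2 with 75 bp paired-end reads, and H3K27me3 from 4000, 20000, 100000 and 250000 cells. A control without bisulfite was made for each of the 3 marks from 250000 cells and contributed peak positions only. Bisulfite reads 5-methylcytosine and 5-hydroxymethylcytosine alike, so a methylated call may be either.

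The 8 bisulfite libraries held between 378056 and 37177077 calls. Over all calls, the level lay between 32.4% and 33.4% in the H3K4me1 and H3K27me3 libraries, and was 81.1% and 81.8% in the H3K9me3 runs. Run 1 and run 2 of a mark may be 1 library read again, which was not tested. Of 552 CpGs at these loci called exactly once in each H3K4me1 run, 536 (97.1%) had the same state. For H3K9me3 it was 94 of 100 (94.0%). The same count was not made between separate libraries, so this agreement cannot decide the question. The labels do not say whether the runs share a library, and the runs were not counted as biological replicates. Values below are from run 2 of H3K4me1 and H3K9me3 and from H3K27me3 with 250000 cells unless another library is named. Percentages are methylated calls among all calls, with Wilson 95% intervals that cover counting error only, and an upper limit for a count of 0 is 3 counts of the total. Expression was not measured. Promoters of the stem cell markers Pou5f1, Nanog, Sox2, Esrrb, Zfp42, Klf4 and Tfcp2l1 had a level of at most 10% in the H3K4me1 library at 6 of 7, and those of the other cell type markers Gata6, Sox17, T, Pax6, Thy1 and Col1a1 at 4 of 6, so promoter methylation gave little separation of these lists.

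The 9 loci fell into groups by the mark that covered them. H3K4me1 fragments piled up over Tet1, Tet2 and Dnmt3l, H3K27me3 fragments over Dnmt3a, Tet3 and Dnmt3b, and H3K9me3 fragments over none. The density of calls, in calls per CpG relative to the mean of the library, was 9.78 for H3K4me1 at Tet1, 7.51 at Tet2 and 6.7 at Dnmt3l, against a median of 0.631 over protein-coding loci. It was 3.98 at Dnmt3a, 3.86 at Uhrf1, 3.18 at Dnmt1, 2.17 at Dnmt3b and 1.3 at Tdg, and only Tet3, with 0.474, lay under that median. The H3K27me3 density was 4.02 at Dnmt3a, 3.98 at Tet3, 2.22 at Dnmt3b and 1.25 at Dnmt3l. At Dnmt1, Uhrf1, Tet1, Tet2 and Tdg it lay between 0.0808 at Tdg and 0.282 at Uhrf1, and of these 5 only Uhrf1 was above the protein-coding median of 0.26. Dnmt3a, Dnmt3b and Dnmt3l were thus above both the library mean and the protein-coding median for both marks, and at Dnmt3a the peaks with the most calls of each mark lay over different start regions. H3K9me3 density was below the library mean at all 9 loci, from 0.124 at Dnmt3b to 0.718 at Tdg, and Dnmt3a, Tet2 and Tdg were above its protein-coding median of 0.326. The densities of run 1 and run 2 of H3K4me1, and of the H3K27me3 libraries from 20000 to 250000 cells at Dnmt3a, Dnmt3b and Tet3, lay close together.

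**Figure D1:**
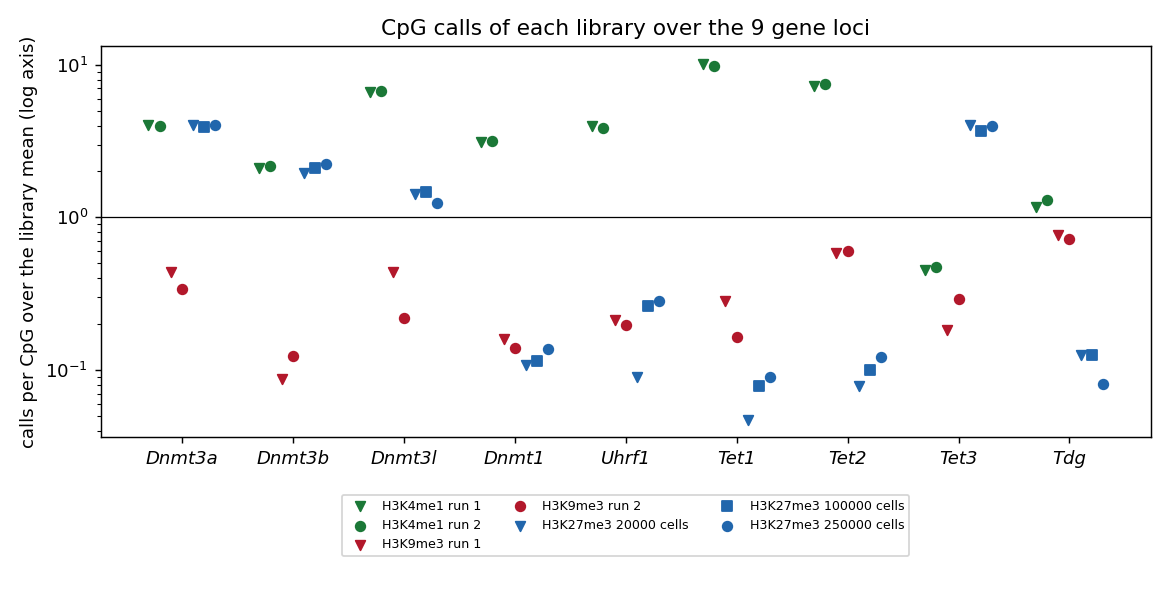
Calls per CpG over each locus divided by the mean of the same library, on a log axis, for each bisulfite library but the smallest; a value of 1 is the library mean. Green H3K4me1 points stand highest at Tet1 (10.2 and 9.78), and blue H3K27me3 points stand near 4 at Dnmt3a and Tet3 and below 0.3 at Dnmt1, Uhrf1, Tet1, Tet2 and Tdg.

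Peaks were also counted at the promoter window, 1000 bp on each side of the start. For a gene with several listed starts, only the start with the most CpGs was counted. An H3K4me1 peak of the unified list overlapped the window at 5 of 9 genes, Dnmt1, Dnmt3b, Dnmt3l, Uhrf1 and Tet1, where 23.3% of protein-coding genes and 16.5% of all genes had one. Each of these 5 overlaps stood in 3 of 3 H3K4me1 lists, the control without bisulfite included. An H3K27me3 peak overlapped it at 3 of 9, Dnmt3a, Dnmt3b and Tet3, against 30.1% of protein-coding and 19.5% of all genes. Each of these was in 4 of 5 H3K27me3 lists, the control included, and missing from the 4000-cell list. An H3K9me3 peak overlapped it at 0 of 9, against 1.64% of protein-coding and 3.06% of all genes. Among these windows, only that of Dnmt3b overlapped both an H3K4me1 and an H3K27me3 peak. The first listed start of Dnmt3l, not counted here, also lay in a peak of each of these marks.

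Dnmt3a has a pair of start regions some way apart, and each carried a different mark. The listed starts at 3806980 and 3807160 on chromosome 12 lie in a CpG island (chr12:3806059-3808658, 297 CpGs). The internal start at 3891744 gives the shorter protein known as DNMT3A2, the form long described as the main one in embryonic stem cells, and lies in a smaller CpG cluster (chr12:3890959-3892058, 56 CpGs). The 250 bases before a start of each region are printed to show the difference in CpG density, with 38 CpGs before the first start and 15 before the internal one, against a median of 6.0 over all listed mouse starts. Capitals mark CpGs here and in all sequences below, which come from RefSeq on GRCm38.p6 and are read 5′ to 3′ on the gene's strand.
Dnmt3a upstream start, chr12:3806730-3806979, plus strand: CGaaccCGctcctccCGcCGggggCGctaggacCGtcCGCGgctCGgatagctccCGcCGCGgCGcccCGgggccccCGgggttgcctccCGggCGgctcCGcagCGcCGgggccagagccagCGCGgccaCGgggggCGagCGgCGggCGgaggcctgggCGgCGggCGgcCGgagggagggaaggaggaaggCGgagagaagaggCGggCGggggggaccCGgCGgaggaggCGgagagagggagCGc
Dnmt3a internal start, chr12:3891494-3891743, plus strand: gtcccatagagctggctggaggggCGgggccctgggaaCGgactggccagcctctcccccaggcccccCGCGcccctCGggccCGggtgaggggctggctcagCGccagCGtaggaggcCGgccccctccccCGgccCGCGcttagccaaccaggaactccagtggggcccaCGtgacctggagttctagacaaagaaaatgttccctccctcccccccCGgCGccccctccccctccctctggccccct

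The island start of Dnmt3a lay inside an H3K27me3 peak of 39962 bp (chr12:3786901-3826862). In the promoter window, 94 of 6975 calls (1.35%, 95% interval 1.1 to 1.65%) were methylated on H3K27me3 fragments. The other H3K27me3 libraries gave 62 of 4567 calls (1.36%) with 100000 cells, 14 of 952 calls (1.47%) with 20000 cells and 0 of 30 calls with 4000 cells. The promoter was therefore almost free of methylation in every H3K27me3 library, and their intervals overlapped. H3K4me1 calls there were few, with 1 of 81 calls (1.23%) methylated in run 2 and 0 of 80 calls in run 1.

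The Polycomb domain of Dnmt3a was not unmethylated throughout. Within the 39962 bp peak, CpG clusters had 260 of 9645 calls (2.7%) methylated, and the remaining 376 CpGs of the same peak had 2222 of 3043 calls (73%). The library from 100000 cells gave 165 of 6399 calls (2.58%) and 1326 of 1847 calls (71.8%), and that from 20000 cells 37 of 1350 calls (2.74%) and 281 of 387 calls (72.6%). Fragments carrying H3K27me3 thus came both from the bare island and from methylated DNA beside it. In 1 kb tiles counted from the start at 3807160, the level went from 206 of 237 calls (86.9%) at 3 to 2 kb before the start to 309 of 548 calls (56.4%), then 83 of 3915 calls (2.12%) and 11 of 3060 calls (0.359%) on the sides of the start, and was back at 180 of 223 calls (80.7%) in the tile that begins 2 kb after it. A further cluster of 27 CpGs upstream (chr12:3791659-3792158), still within the peak, had 10 of 525 calls (1.9%) methylated.

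At the internal start of Dnmt3a the H3K4me1 library supplied the calls. That start sat in an H3K4me1 peak of 11693 bp (chr12:3882831-3894523), where 278 of 1680 calls (16.5%, 95% interval 14.8 to 18.4%) were methylated in run 2 and 152 of 847 calls (17.9%) in run 1. Its window of 1000 bp on each side had 16 of 561 calls (2.85%, 95% interval 1.76 to 4.58%) methylated with H3K4me1 and 4 of 90 calls (4.44%) with H3K27me3. Both start regions of Dnmt3a were therefore nearly free of methylation, but the first was read mainly on H3K27me3 fragments and the internal one mainly on H3K4me1 fragments. The lncRNA gene Gm31623 overlaps Dnmt3a here, and the peak cannot be assigned to either gene. Beyond the 3′ end of Dnmt3a, a single H3K9me3 peak (chr12:3916941-3917941) had 49 of 52 calls (94.2%, 95% interval 84.4 to 98%) methylated, and stood in 1 of 3 H3K9me3 lists.

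Dnmt3b carried both marks at its start, in peaks that overlapped. The 250 bases before the start hold 21 CpGs and show the CpG-dense end of an H3K27me3 peak of 18276 bp (chr2:153632965-153651240), which reaches from upstream into the gene.
Dnmt3b start, chr2:153649199-153649448, plus strand: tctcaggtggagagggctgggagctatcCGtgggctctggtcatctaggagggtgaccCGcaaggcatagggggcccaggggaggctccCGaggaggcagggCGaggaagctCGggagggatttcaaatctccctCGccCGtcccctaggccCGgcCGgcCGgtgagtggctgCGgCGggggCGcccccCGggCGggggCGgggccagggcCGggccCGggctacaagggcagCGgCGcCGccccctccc
Over these printed bases, 7 of 395 calls (1.77%, 95% interval 0.861 to 3.61%) were methylated with H3K27me3 and 0 of 52 calls (a count that allows up to 5.77%) with H3K4me1. The CpG cluster at the start (chr2:153649011-153650310, 116 CpGs) had 54 of 1342 calls (4.02%, 95% interval 3.1 to 5.21%) methylated with H3K27me3 and 7 of 220 calls (3.18%, 95% interval 1.55 to 6.42%) with H3K4me1, and the intervals overlapped.

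Upstream of Dnmt3b, methylation rose steeply. The tile from 1 kb before the start to the start had 238 of 811 calls (29.3%) methylated on H3K27me3 fragments, the tile before it 118 of 139 calls (84.9%), and the tile after the start 3 of 860 calls (0.349%). The edge lay within this kilobase. In 250 bp tiles, looked at after the 1 kb values were seen, the level was 76.7% at 1000 to 750 bp before the start, 42.7% at 500 to 250 bp and 1.77% in the last 250 bp. Further upstream the H3K27me3 peak held another low stretch, picked after its values were seen, with 12 of 213 calls (5.63%) methylated in the tile 7 to 6 kb before the start, which lies within the upstream H3K4me1 peak (chr2:153640982-153643606). The whole promoter window of Dnmt3b, which takes in this edge, had 241 of 1671 calls (14.4%, 95% interval 12.8 to 16.2%) methylated with 250000 cells, 140 of 1002 calls (14%) with 100000 cells and 9 of 179 calls (5.03%) with 20000 cells. The interval of the last, 2.67 to 9.28%, lay below those of the larger libraries. Its H3K4me1 calls gave 15 of 245 calls (6.12%) in run 2 and 10 of 111 calls (9.01%) in run 1.

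Downstream of the Dnmt3b start, the H3K4me1 peak (chr2:153649411-153653224, 3814 bp) held calls of both marks. It had 66 of 413 calls (16%, 95% interval 12.8 to 19.8%) methylated with H3K4me1 and 16 of 1056 calls (1.52%, 95% interval 0.935 to 2.45%) with H3K27me3. At the 121 CpGs of this peak called in both libraries, the H3K4me1 library had 48 of 373 calls (12.9%) and the H3K27me3 library 16 of 871 calls (1.84%). How calls were spread over those CpGs was not matched between the libraries. This peak was chosen as the H3K4me1 peak of the locus with the most calls, and no test was made of it.

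Tet3, described here with the Polycomb loci, had the largest share of its locus in H3K27me3 peaks, 42.8%, beside 29.6% at Dnmt3a, 21.1% at Dnmt3l and 20.3% at Dnmt3b. TET3 is the TET enzyme best known from the zygote and from neurons. Its listed start, at 83441678 on the minus strand of chromosome 6, lies within the second of a pair of long H3K27me3 peaks (chr6:83414392-83433944, 19553 bp, and chr6:83436251-83465880, 29630 bp). The lncRNA gene B230319C09Rik overlaps Tet3 just beside this start. The bases before this start hold 17 CpGs and are printed for comparison with the island of Dnmt3a.
Tet3 start, chr6:83441679-83441928, minus strand: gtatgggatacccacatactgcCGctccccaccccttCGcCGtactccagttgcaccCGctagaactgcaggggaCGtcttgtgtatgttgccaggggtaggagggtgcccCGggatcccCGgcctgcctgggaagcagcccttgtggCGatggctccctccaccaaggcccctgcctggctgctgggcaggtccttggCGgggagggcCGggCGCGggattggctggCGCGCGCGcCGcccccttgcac
Around this start, a cluster of 61 CpGs had 15 of 590 calls (2.54%, 95% interval 1.55 to 4.15%) methylated with H3K27me3, 14 of 308 calls (4.55%) in the library from 100000 cells and 0 of 109 calls in that from 20000 cells. H3K4me1 calls were fewer and more often methylated there, 10 of 64 calls (15.6%, 95% interval 8.71 to 26.4%) in run 2 and 3 of 18 calls in run 1, and the run 2 interval lay above that of H3K27me3 from 250000 cells. How calls were spread over the CpGs of this cluster was not matched between the libraries, and the difference was not tested.

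The annotated Tet3 gene reaches beyond this start to a larger CpG cluster at its far upstream end (chr6:83455573-83457472, 172 CpGs), which is not among the listed starts. Both marks had low levels in it, with 62 of 3934 calls (1.58%, 95% interval 1.23 to 2.02%) methylated on H3K27me3 fragments and 2 of 107 calls (1.87%) on H3K4me1 fragments, and it held the only H3K4me1 peak of the locus (chr6:83456708-83457769, in 2 of 3 lists). Between and around the clusters the peak was methylated: outside clusters, the 29630 bp peak had 2906 of 4157 calls (69.9%), against 77 of 4524 calls (1.7%) inside them. The 19553 bp peak within the gene holds no CpG cluster, and had 1886 of 2898 calls (65.1%, 95% interval 63.3 to 66.8%) methylated. This peak was picked after its values were seen. With 100000 and 20000 cells it had 1200 of 1895 calls (63.3%) and 259 of 357 calls (72.5%), so most calls on H3K27me3 fragments were methylated there in each of these libraries. Other clusters of the Tet3 locus were methylated in the few calls they had, with 28 of 33 calls (84.8%) at chr6:83364973-83365472 and 22 of 26 calls (84.6%) on H3K9me3 fragments at chr6:83404273-83404772. The remaining cluster, chr6:83367773-83368572, had 12 of 14 calls methylated with H3K9me3, 5 of 6 calls with H3K27me3 and 0 of 9 calls with H3K4me1.

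**Figure D2:**
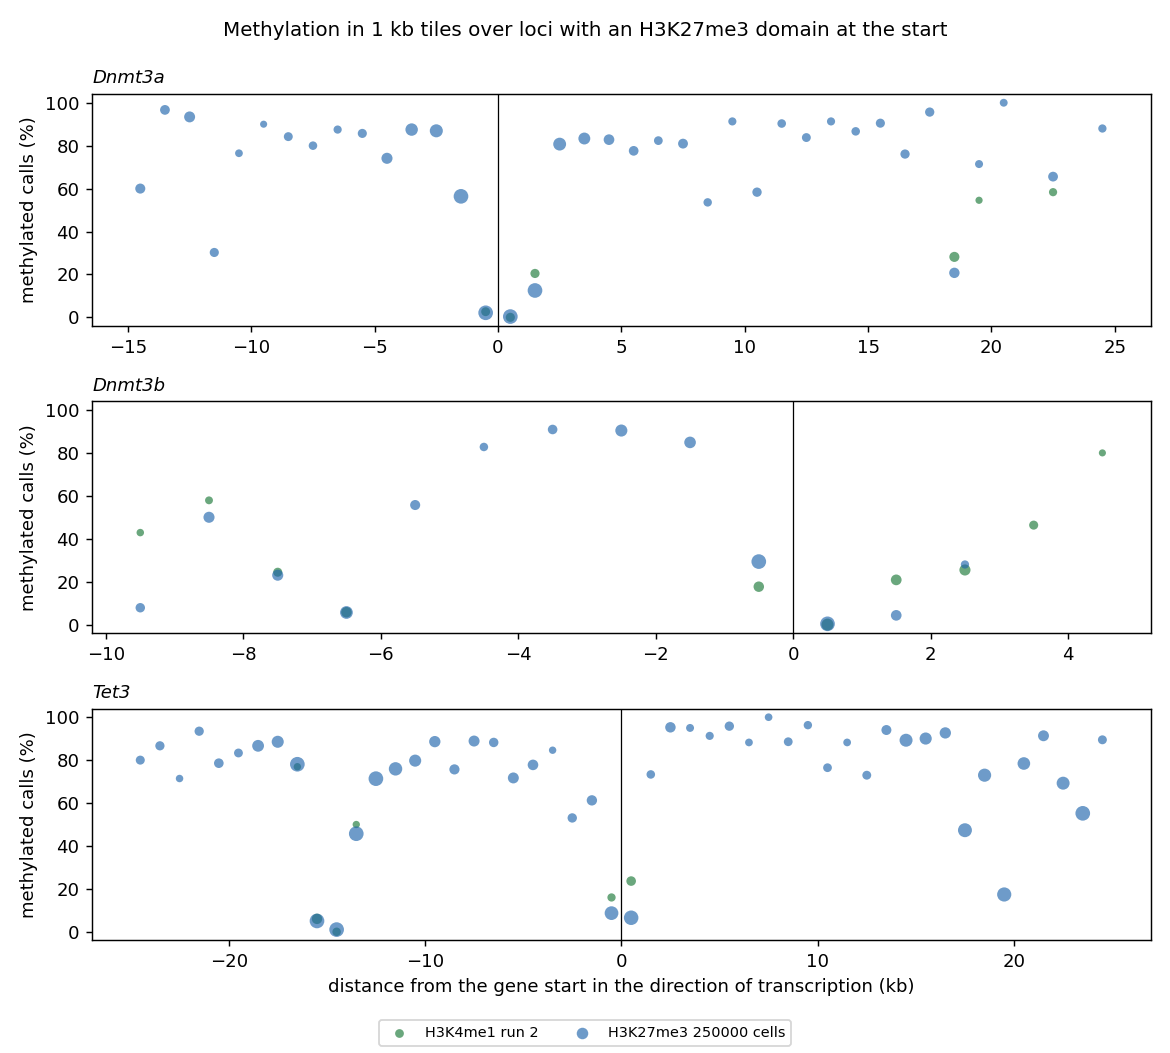
Methylation level in 1 kb tiles with at least 10 calls around the starts of Dnmt3a, Dnmt3b and Tet3, against distance from the start in the direction of transcription; larger points have more calls. At Dnmt3a and Dnmt3b the tile just after the start lies under 1% on H3K27me3 fragments, and tiles 2 to 3 kb upstream lie above 80%; Tet3 shows a further dip about 15 kb upstream.

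Dnmt3l has 3 listed starts, at 78042287, 78049842 and 78055335 on chromosome 10, none of them inside a CpG cluster. The bases before the first and second starts hold 5 and 4 CpGs, below the median of all listed starts, and are printed because the windows around these starts differed in methylation although both are CpG-poor.
Dnmt3l upstream start, chr10:78042037-78042286, plus strand: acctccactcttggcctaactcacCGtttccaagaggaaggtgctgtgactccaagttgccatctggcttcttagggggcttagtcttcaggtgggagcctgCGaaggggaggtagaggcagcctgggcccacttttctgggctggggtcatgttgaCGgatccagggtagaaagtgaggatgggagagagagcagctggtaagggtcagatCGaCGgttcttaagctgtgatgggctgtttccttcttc
Dnmt3l second start, chr10:78049592-78049841, plus strand: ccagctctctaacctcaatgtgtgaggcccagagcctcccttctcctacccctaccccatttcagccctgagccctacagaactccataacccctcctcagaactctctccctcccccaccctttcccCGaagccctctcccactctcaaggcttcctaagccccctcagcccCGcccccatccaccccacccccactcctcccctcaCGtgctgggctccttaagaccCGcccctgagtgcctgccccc
Over the bases printed, 0 of 28 calls (a count that allows up to 10.7%) were methylated before the second start with H3K4me1, and 2 of 4 calls before the first. With windows of 1000 bp on each side, the first start had 42 of 90 calls (46.7%, 95% interval 36.7 to 56.9%) methylated with H3K4me1, the second 28 of 254 calls (11%, 95% interval 7.74 to 15.5%) and the third 66 of 187 calls (35.3%, 95% interval 28.8 to 42.4%). Run 1 gave the same order for the second against the others, with 16 of 33 calls (48.5%), 11 of 147 calls (7.48%) and 35 of 76 calls (46.1%). H3K27me3 calls at the first start were methylated in 49 of 74 calls (66.2%).

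The second start of Dnmt3l lay in an H3K4me1 peak of 11106 bp (chr10:78042120-78053225), with 207 of 1013 calls (20.4%, 95% interval 18.1 to 23%) methylated in run 2 and 99 of 512 calls (19.3%) in run 1. Of the 3 H3K27me3 peaks of the locus, a short one (chr10:78041615-78044074) covered the first start and the overlapping end of Aire, and the others lay in Aire and beside Icosl. The H3K27me3 peak with the most calls (chr10:78068481-78071292) covered a CpG cluster where Icosl and Gm51775 overlap, where 19 of 656 calls (2.9%) were methylated. Another bare cluster (chr10:78043187-78043886) lay at the end of Aire that overlaps Dnmt3l, with 7 of 334 calls (2.1%) methylated with H3K4me1 and 3 of 101 calls (2.97%) with H3K27me3. The cluster within Aire (chr10:78034287-78034986) had 48 of 97 calls (49.5%) and 65 of 109 calls (59.6%). H3K27me3 values over the whole Dnmt3l locus thus include these neighbours.

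Dnmt1, the maintenance enzyme, has 3 listed starts on the minus strand of chromosome 9. The most upstream, at 20959888, has few CpGs and was methylated, whereas the pair at 20952979 and 20952623 shares a CpG cluster (chr9:20952106-20953205, 66 CpGs) that was bare. The bases before the upstream start, with 2 CpGs, and before the start at 20952979, with 7, show that contrast.
Dnmt1 upstream start, chr9:20959889-20960138, minus strand: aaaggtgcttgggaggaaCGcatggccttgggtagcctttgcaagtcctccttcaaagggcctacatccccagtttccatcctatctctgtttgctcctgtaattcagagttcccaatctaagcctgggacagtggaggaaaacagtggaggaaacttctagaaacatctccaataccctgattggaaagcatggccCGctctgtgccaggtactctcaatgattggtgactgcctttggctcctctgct
Dnmt1 start at the CpG cluster, chr9:20952980-20953229, minus strand: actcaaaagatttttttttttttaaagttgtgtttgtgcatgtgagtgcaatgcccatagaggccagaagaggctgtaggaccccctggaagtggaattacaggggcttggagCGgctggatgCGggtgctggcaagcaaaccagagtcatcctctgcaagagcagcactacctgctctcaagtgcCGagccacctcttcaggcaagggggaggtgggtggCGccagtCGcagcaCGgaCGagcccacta
Before the start at the cluster, 0 of 30 calls (a count that allows up to 10%) were methylated with H3K4me1, and before the upstream start 2 of 2 calls. In windows of 1000 bp on each side, the upstream start had 9 of 9 calls methylated with H3K4me1, 9 of 13 calls with H3K27me3 and 14 of 17 calls in the H3K27me3 library from 100000 cells. The start at 20952623 had 8 of 268 calls (2.99%, 95% interval 1.52 to 5.78%) with H3K4me1 and 1 of 83 calls (1.2%, 95% interval 0.213 to 6.51%) with H3K27me3. The upstream value rests on under 20 calls in each library.

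The main H3K4me1 peak of Dnmt1 lay inside the gene just past these starts (chr9:20942796-20951732, 8937 bp). It had 286 of 1022 calls (28%, 95% interval 25.3 to 30.8%) methylated in run 2 and 143 of 508 calls (28.1%) in run 1, far above the bare start. The other CpG clusters of the locus belong to its neighbours, with 0 of 29 calls methylated at one end of Eif3g (chr9:20897906-20899105) and 82 of 175 calls (46.9%) inside S1pr2 (chr9:20967506-20968305). No H3K27me3 or H3K9me3 peak touched the Dnmt1 locus.

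Uhrf1, which recognises hemimethylated CpGs for DNMT1, has a pair of listed starts, at 56303337 and 56304313 on chromosome 17, within 1 CpG cluster (chr17:56303137-56304836, 119 CpGs). The cluster had 0 of 231 calls (a count that allows up to 1.3%) methylated with H3K4me1, 1 of 93 calls (1.08%, 95% interval 0.19 to 5.84%) with H3K27me3 and 0 of 24 calls (a count that allows up to 12.5%) with H3K9me3. Nearly all calls there were therefore unmethylated in each of these libraries. No H3K27me3 or H3K9me3 peak touched the Uhrf1 locus, so the calls of those libraries do not show that either mark sits on the cluster. H3K4me1 peaks stood in 9 pieces across the locus. The one with the most calls (chr17:56323917-56326126) was at one end of the neighbouring gene Kdm4b, where 29 of 233 calls (12.4%, 95% interval 8.81 to 17.3%) were methylated and the cluster (chr17:56325337-56326836) had 2 of 200 calls (1%). Inside the gene, away from the start, the Uhrf1 body had 250 of 434 calls (57.6%) methylated with H3K4me1.

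Tet1 had more H3K4me1 than any other member, with 56.3% of its locus inside H3K4me1 peaks, followed by 45.5% at Dnmt3l and 43.7% at Tet2. TET1 and TET2 are the TET enzymes abundant in embryonic stem cells. The start of Tet1 at 62887324 on the minus strand of chromosome 10 holds a CpG cluster (chr10:62886070-62887669, 91 CpGs), and its promoter had 1 of 138 calls (0.725%, 95% interval 0.128 to 3.99%) methylated with H3K4me1. Run 1 had 0 of 91 calls and H3K27me3 0 of 20 calls (a count that allows up to 15%). Low levels reached past the promoter: the tiles from the start to 4 kb into the gene had 1 of 55 calls (1.82%), 1 of 58 calls (1.72%), 1 of 49 calls (2.04%) and 1 of 36 calls (2.78%) methylated.

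The H3K4me1 peak of Tet1 with the most calls was a domain of 25388 bp inside the gene (chr10:62859504-62884891), where 628 of 2316 calls (27.1%, 95% interval 25.3 to 29%) were methylated in run 2 and 316 of 1207 calls (26.2%) in run 1. The next domain into the gene, of 18443 bp (chr10:62840442-62858884), had 583 of 1556 calls (37.5%, 95% interval 35.1 to 39.9%), and the next one, of 5807 bp (chr10:62832771-62838577), 182 of 334 calls (54.5%, 95% interval 49.1 to 59.8%). Upstream of the gene, a domain of 12750 bp (chr10:62892551-62905300) had 94 of 1051 calls (8.94%, 95% interval 7.37 to 10.8%). The last 3 domains were picked after their values were seen. Along Tet1, H3K4me1-linked methylation was thus low upstream and at the start, and the levels of whole domains were higher with distance into the gene. The intervals of these domains did not overlap, but this order rests on domains picked with values known. Single 1 kb tiles did not climb steadily. In tiles beginning 15000 and 21000 bp into the gene, 46 of 89 calls (51.7%) and 25 of 258 calls (9.69%) were methylated. At 33000 and 39000 bp it was 49 of 81 calls (60.5%) and 27 of 132 calls (20.5%). Gm51805, a lncRNA gene, overlaps Tet1 and the upstream domain. A small cluster within the gene (chr10:62879570-62880069, 26 CpGs) had 27 of 145 calls (18.6%, 95% interval 13.1 to 25.7%).

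Tet2 showed the same pair of features, a bare start and broad H3K4me1 inside the gene. The 250 bases before its start hold 51 CpGs, more than 99.93% of listed starts, in a short CpG-rich stretch that recurs along the sequence.
Tet2 start, chr3:133544391-133544640, minus strand: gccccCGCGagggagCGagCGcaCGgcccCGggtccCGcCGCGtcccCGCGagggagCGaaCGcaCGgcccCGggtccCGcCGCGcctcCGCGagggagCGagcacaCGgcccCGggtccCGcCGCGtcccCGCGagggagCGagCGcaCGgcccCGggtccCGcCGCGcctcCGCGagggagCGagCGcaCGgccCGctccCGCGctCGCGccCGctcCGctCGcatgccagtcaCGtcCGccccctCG
In the promoter window, 0 of 114 calls (a count that allows up to 2.63%) were methylated with H3K4me1 and 0 of 51 calls (a count that allows up to 5.88%) with H3K27me3. The H3K4me1 peak with the most calls spanned 23396 bp inside the gene (chr3:133505032-133528427), with 379 of 1882 calls (20.1%, 95% interval 18.4 to 22%) methylated in run 2 and 206 of 930 calls (22.2%) in run 1. The CpG cluster at the start (chr3:133543977-133545376, 130 CpGs) had 0 of 102 calls methylated with H3K4me1 and 0 of 51 calls with H3K27me3. No H3K4me1 peak overlapped the promoter window itself, and the nearest ended within the gene at 133542559. Over the H3K4me1 peaks of the Tet2 locus together, 603 of 2899 calls (20.8%) were methylated, against 181 of 404 calls (44.8%) of the same library outside peaks. At Tet1 it was 1415 of 4802 calls (29.5%) against 204 of 397 calls (51.4%), and at Dnmt1 427 of 1482 calls (28.8%) against 205 of 353 calls (58.1%).

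**Figure D3:**
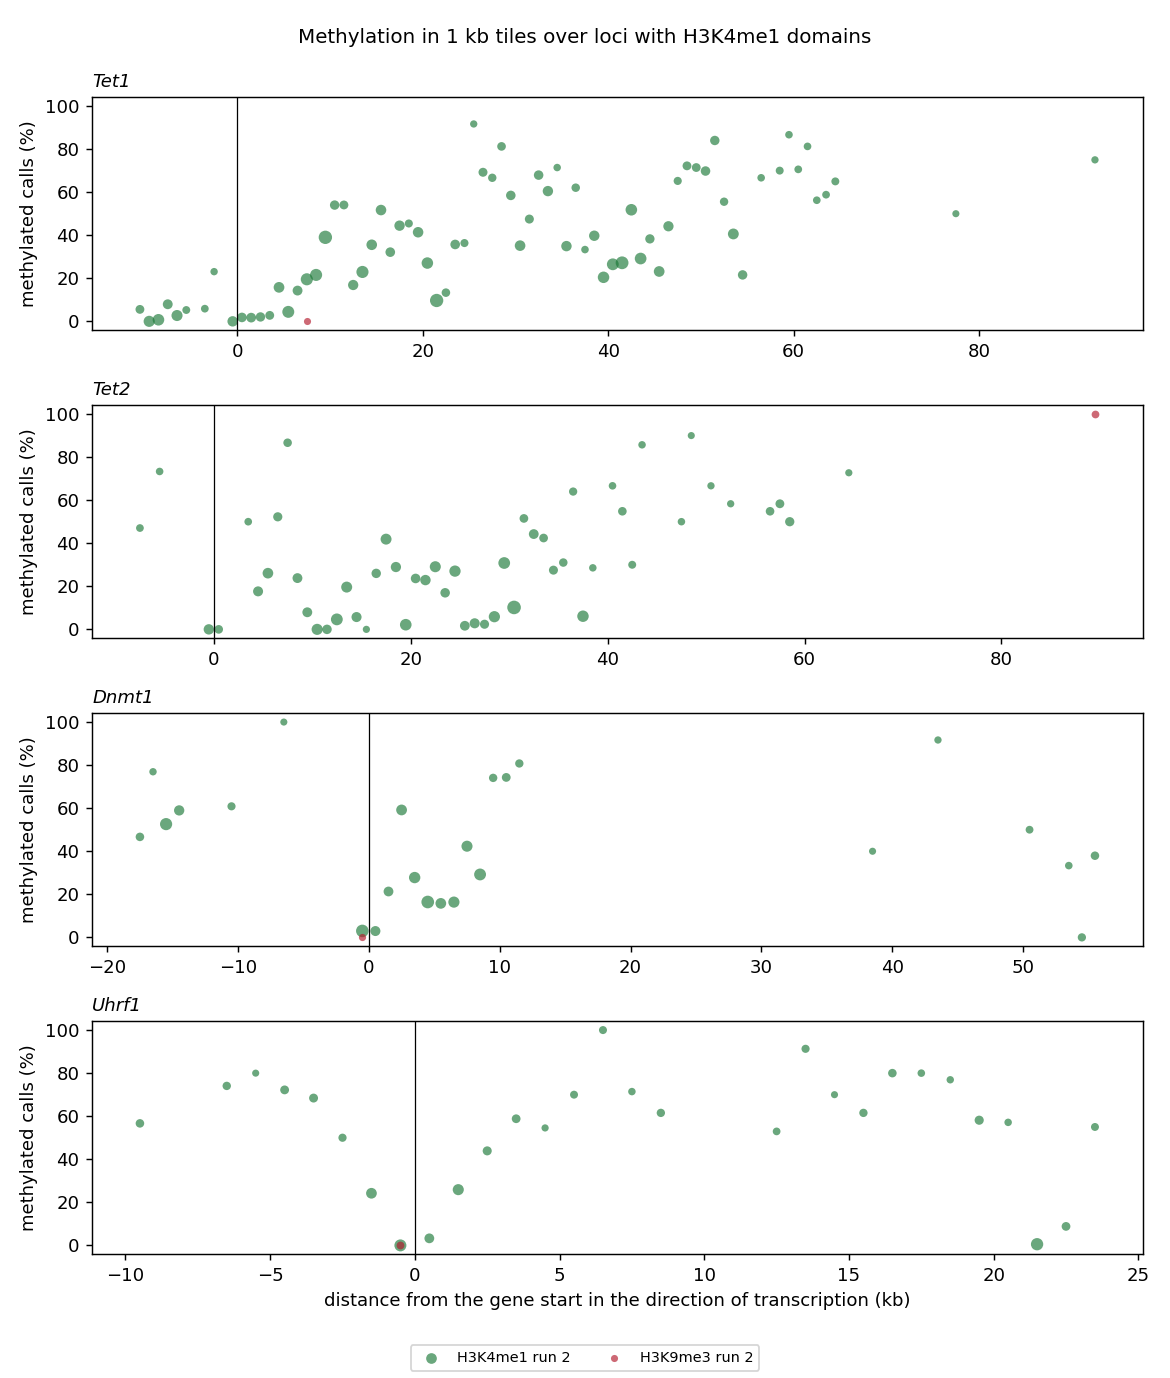
Methylation level in 1 kb tiles with at least 10 calls along Tet1, Tet2, Dnmt1 and Uhrf1, against distance from the start in the direction of transcription; green is H3K4me1 and red H3K9me3, and larger points have more calls. All 4 genes are near 0 at the start, and at Tet1 the H3K4me1 tiles further into the gene rise and fall without a steady climb.

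Tdg, the glycosylase gene, was covered by neither H3K4me1 nor H3K27me3 at its start, and H3K4me1 peaks took up 5.99% of the locus. Its CpG cluster (chr10:82629414-82630613, 92 CpGs) had 0 of 112 calls (a count that allows up to 2.68%) methylated with H3K4me1 in run 2 and 5 of 64 calls (7.81%) in run 1, 0 of 27 calls (a count that allows up to 11.1%) with H3K9me3 and 0 of 21 calls (a count that allows up to 14.3%) with H3K27me3. The 5 methylated calls of run 1 have no counterpart in run 2. Inside the gene an H3K9me3 peak of 1001 bp (chr10:82632982-82633982, in 1 of 3 lists) had 28 of 29 calls (96.6%, 95% interval 82.8 to 99.4%) methylated. Away from that peak, H3K9me3 calls at Tdg were methylated in 32 of 93 calls (34.4%). The H3K4me1 peak with the most calls (chr10:82623314-82624812) lay upstream, beside the bare cluster (chr10:82622514-82623613) of 1190007I07Rik, and had 5 of 67 calls (7.46%).

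Whether calls on fragments of different marks differ in methylation over the same gene was asked locus by locus. H3K9me3 calls were more methylated than H3K4me1 calls at 5 of 9 loci, Dnmt3a, Dnmt3b, Tet2, Tet3 and Tdg, and less methylated at 0 of 9. Among all 22297 genes with at least 20 calls in both libraries, 66.4% were higher and 0.727% lower, so the members' share is near the background. The median difference was 26.9 points over the 9 members and 29.9 points over all genes tested. A gene was called when Fisher's exact test, two-sided, gave a Benjamini-Hochberg adjusted p of at most 0.05 over all genes and the levels differed by at least 20 points. The test compares 2 libraries, not 2 marks, and calls on 1 fragment are not independent. Only the Dnmt3a and Tdg loci held an H3K9me3 peak, with 27.2% and 23.8% of their H3K9me3 calls in it. At the other members all H3K9me3 calls lay outside peaks of that mark. Those calls do not show that the mark sits there.

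The largest of these differences was at Dnmt3a, where 143 of 191 calls (74.9%, 95% interval 68.3 to 80.5%) were methylated with H3K9me3 and 961 of 3451 calls (27.8%, 95% interval 26.4 to 29.4%) with H3K4me1 (Fisher's exact test, adjusted p = 1.09e-37). It was 43.8 points at Dnmt3b, with 18 of 27 calls (66.7%) against 166 of 725 calls (22.9%), and 41.3 points at Tet3, with 116 of 150 calls (77.3%) against 135 of 375 calls (36%). It was 31.8 points at Tet2, with 96 of 173 calls (55.5%) against 784 of 3303 calls (23.7%), and 26.9 points at Tdg, with 60 of 122 calls (49.2%) against 76 of 341 calls (22.3%). The remaining loci did not pass, with 23 of 52 calls (44.2%) against 632 of 1835 calls (34.4%) at Dnmt1, 16 of 38 calls (42.1%) against 471 of 1783 calls (26.4%) at Dnmt3l, 14 of 41 calls (34.1%) against 448 of 1235 calls (36.3%) at Uhrf1 and 17 of 57 calls (29.8%) against 1619 of 5199 calls (31.1%) at Tet1. Run 1 alone gave 4 calls among the 6 members with enough calls, with Dnmt3l called by 26.8 points and Tdg not, at 15.4 points.

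Most of these differences were smaller at shared CpGs. When only CpGs called in both libraries entered, 1 of the 7 members that could still be tested kept a call, Tet2, with 45.9% of 133 H3K9me3 calls and 23.5% of 714 H3K4me1 calls. At Dnmt3a the difference went from 47.0 points to 0.812 points, and at Tdg it was 15.6 points. Dnmt3b and Tet3 had too few shared calls to test, with a difference of 5.5 points over 8 and 25 calls at Dnmt3b and 24.1 points over 19 and 21 calls at Tet3. At Dnmt3a, where the H3K9me3 library had 49 of its 143 methylated calls in the peak beyond the 3′ end, the H3K4me1 library had 0 calls in that peak. Counting each CpG once, or the gene without its flanks, left 3 calls, and summing the runs gave 6, with Dnmt3l called by 20.03 points.

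Between H3K27me3 and H3K4me1 calls, 0 of 9 loci were called, where 31.6% of 28748 genes were higher and 2.06% lower with H3K27me3. At the 10-point threshold, 2 loci were called, Tet1 and Tet2, and neither holds an H3K27me3 peak. The members' differences ran from -6.00 points at Dnmt3a to 18.7 points at Tet2, with a median of 6.18 points, against 11.1 points over all genes. At Tet2, 87 of 205 calls (42.4%) were methylated with H3K27me3 and 784 of 3303 calls (23.7%) with H3K4me1 (Fisher's exact test, adjusted p = 6.69e-08), and over shared CpGs alone they differed by 6.83 points. At Dnmt3a, 2921 of 13367 calls (21.9%) were methylated with H3K27me3 and 961 of 3451 calls (27.8%) with H3K4me1 (adjusted p = 1.93e-12 by Fisher's exact test), a difference that passed the test but not the size threshold. With each CpG counted once, the Dnmt3a difference turned to 7.25 points and Tet3 became a call at 24.9 points.

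H3K27me3 calls were less methylated than H3K9me3 calls at 3 of 9 loci, Dnmt3a by 53.0 points, Dnmt3b by 37.6 points and Tet3 by 33.5 points, and more methylated at 0 of 9. Among 30641 genes, 29.2% were lower and 3.07% higher. The members' share lower is thus near the background. The 3 called are the members with an H3K27me3 peak at the promoter window of the CpG-richest start. Dnmt3l, with such a peak over its first listed start, was not called. It differed by -15.45 points (Fisher's exact test, adjusted p = 0.0951). Tdg, without an H3K27me3 peak in its locus, differed by -19.55 points (Fisher's exact test, adjusted p = 0.0172), short of the size threshold. At the same CpGs, Dnmt3a differed by 28 points and Tet3 by 40.2 points, both still lower with H3K27me3. At Dnmt3b only 11 H3K9me3 calls were left, too few to test, and the difference there turned to 30.3 points, higher with H3K27me3, over 132 and 11 calls. At Tet1 the direction was opposite, with 84 of 183 calls (45.9%) methylated with H3K27me3 and 17 of 57 calls (29.8%) with H3K9me3, and this was a call only with run 1 of H3K9me3, alone or summed with run 2 (33.0 and 22.0 points).

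In the order of levels, H3K9me3 stood highest at 7 of 9 loci, and at Dnmt1 and Dnmt3l its interval overlapped those of both other marks. At Tet2 its interval overlapped that of H3K27me3. At Uhrf1 H3K4me1 and at Tet1 H3K27me3 stood highest, with intervals that overlapped that of H3K9me3. H3K4me1 and H3K27me3 were neighbours in this order at most loci, and their intervals overlapped at Dnmt1, Dnmt3l, Uhrf1 and Tdg.

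**Figure D4:**
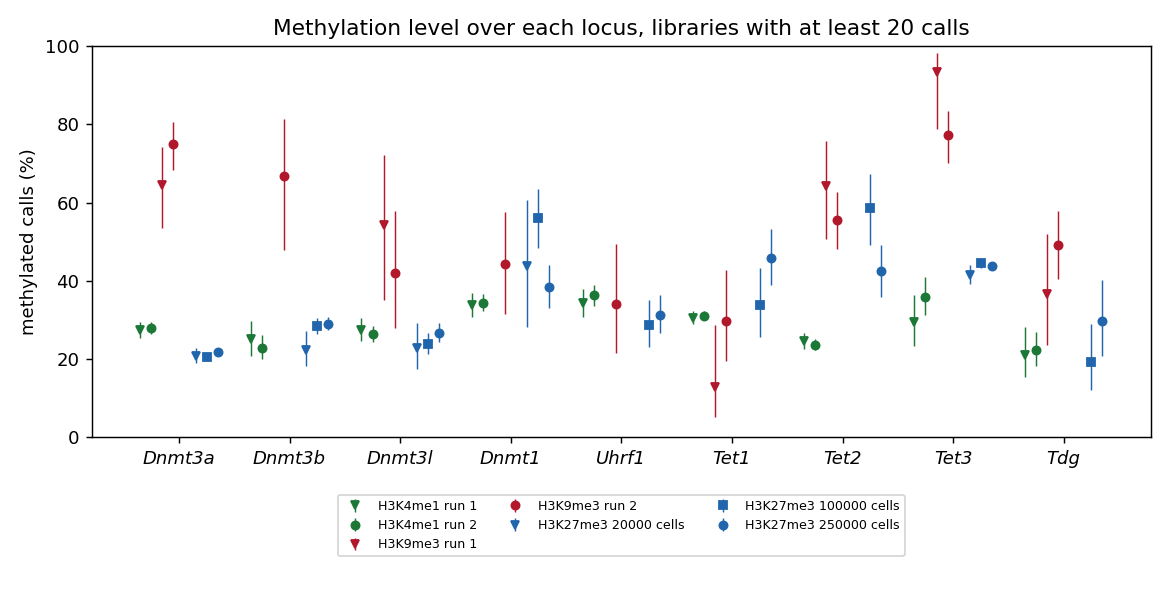
Methylation level over each whole locus in each library with at least 20 calls; bars are 95% Wilson intervals, which cover counting error only. The H3K9me3 points of run 2 stand at 66.7% or more at Dnmt3a, Dnmt3b and Tet3, above the H3K4me1 and H3K27me3 points of the same loci.

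Promoters were compared with the rest of the gene within each mark. With H3K4me1, 7 of 9 were lower and 0 higher, where 73.2% of 12634 genes were lower and 3.34% higher, so the members' share is near the background. With H3K27me3, 9 of 9 were lower, against 69.9% lower and 4.7% higher of 14859 genes. With H3K9me3 only Tdg had 20 calls in both parts and was lower, with 0 of 38 in the promoter and 50 of 61 in the body (82.0%), against 63.9% lower and 2.94% higher of 2212 genes. In the text that follows, the promoter of a gene with several listed starts is the one with the most CpGs, a choice made without methylation. The body is all the rest of the annotated gene. At Dnmt1, Dnmt3a, Dnmt3l and Tet3 it therefore includes sequence upstream of the start used.

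The widest gap with H3K4me1 was at Uhrf1, with 2 of 223 calls (0.897%) in the promoter and 250 of 434 calls (57.6%) in the body (Fisher's exact test, adjusted p = 1.27e-55). Tdg followed with 1 of 119 calls (0.84%) and 46 of 80 calls (57.5%). Bodies had lower levels than at Uhrf1 and Tdg in the other genes, with 1580 of 4546 calls (34.8%) at Tet1 and 737 of 3120 calls (23.6%) at Tet2. Dnmt1 had 8 of 268 calls (2.99%) against 420 of 1168 calls (36%), Dnmt3a 1 of 81 calls (1.23%) against 945 of 3324 calls (28.4%), and Dnmt3b 15 of 245 calls (6.12%) against 114 of 307 calls (37.1%). Dnmt3l and Tet3 missed the 20-point threshold, with 28 of 254 calls (11%) against 272 of 976 calls (27.9%) and 17 of 80 calls (21.2%) against 91 of 252 calls (36.1%). Their bodies take in all or most of a bare upstream CpG cluster. It had 7 of 334 calls (2.1%) methylated at Dnmt3l and 2 of 107 calls (1.87%) at Tet3. With the most upstream start in place of the CpG-richest, Dnmt3l turned to a higher promoter, by 23.4 points with H3K4me1 and 36.5 points with H3K27me3.

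With H3K27me3 the gap was 60.7 points at Uhrf1, 56.8 at Dnmt1, 49.6 at Tet1, 43.9 at Dnmt3a, 41.4 at Tdg, 37.7 at Tet2, 36.4 at Tet3, 26.7 at Dnmt3b and 26.5 at Dnmt3l. For Dnmt3a this set 94 of 6975 calls (1.35%) in the promoter against 2426 of 5359 calls (45.3%) in the body. For Tet3 it set 51 of 681 calls (7.49%) against 4232 of 9641 calls (43.9%; Fisher's exact test, adjusted p = 1.56e-93). The Tet3 body takes in most of the bare cluster upstream of the start, where 62 of 3934 calls (1.58%) were methylated. Of these genes, Tet1, Tet2, Tdg and Dnmt3l have 20 to 51 promoter calls. With 100000 cells only 5 members could be tested and 3 were lower, since Dnmt3b and Dnmt3l then differed by less than 20 points.

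**Figure D5:**
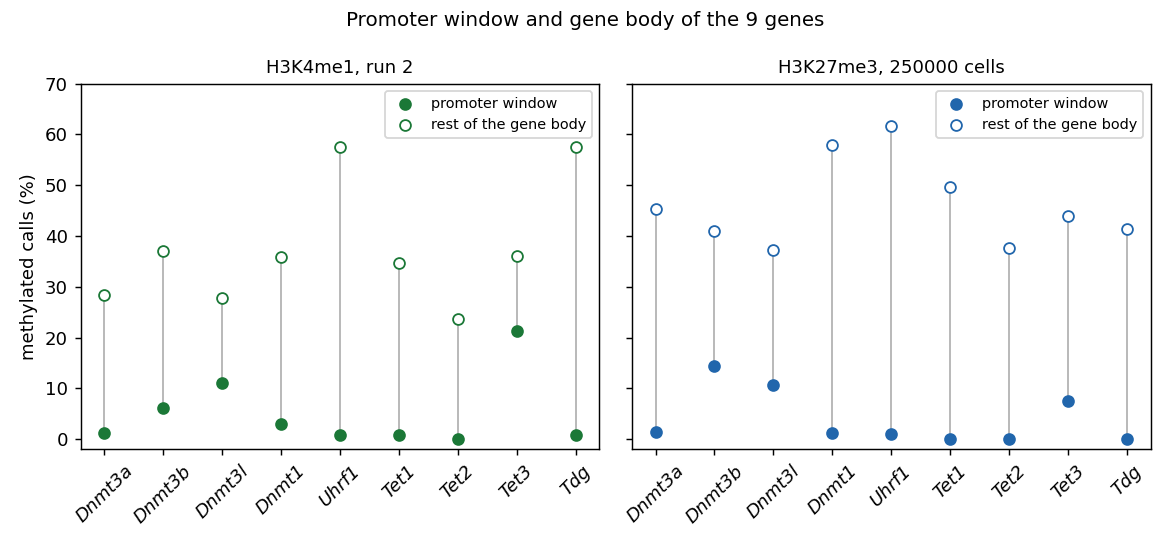
Level in the promoter window (filled) and in the rest of the gene body (open) for each gene, on H3K4me1 fragments (left) and H3K27me3 fragments (right). Filled points lie under the open point at all 9 genes in both panels, and the filled points above 5% are Dnmt3b, Dnmt3l and Tet3.

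Of single promoters, 7 of 9 promoters had a level of at most 10% with H3K4me1 and 7 of 9 with H3K27me3, with medians of 1.24% and 1.21%. Among protein-coding genes with at least 20 calls the shares were 74.5% and 65.7%, and among all genes 64.7% and 52.6%. With H3K9me3, 2 promoters had enough calls, Uhrf1 with 1 of 20 calls (5%) and Tdg with 0 of 38 calls, and both were at most 10%, beside 66.6% of protein-coding and 41.4% of all genes. The exceptions were Dnmt3l and Tet3 with H3K4me1, and Dnmt3l and Dnmt3b with H3K27me3. These are levels of the whole window, which at Dnmt3b takes in a methylated edge. The CpG cluster at the Dnmt3b start had 54 of 1342 calls (4.02%) methylated with H3K27me3. At the Tet3 start the cluster had 10 of 64 calls (15.6%) with H3K4me1.

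The H3K27me3 libraries from 100000 and 250000 cells, which are separate libraries, show how far 1 mark varies. None of the 9 loci was called, against 1.29% higher and 1.67% lower of 36864 genes, and the median difference was -1.43 points beside -0.370 over all genes. Where H3K27me3 was dense the values were close, with 1761 of 8621 calls (20.4%) and 2921 of 13367 calls (21.9%) at Dnmt3a, 505 of 1776 calls (28.4%) and 828 of 2848 calls (29.1%) at Dnmt3b, and 3292 of 7396 calls (44.5%) and 5301 of 12080 calls (43.9%) at Tet3. With 20000 cells these loci had 381 of 1821 calls (20.9%), 76 of 340 calls (22.4%) and 681 of 1638 calls (41.6%), and with 4000 cells 18 of 59 calls (30.5%), 5 of 45 calls (11.1%) and 46 of 78 calls (59%). Where it was thin they moved more, with 93 of 166 calls (56%) and 117 of 305 calls (38.4%) at Dnmt1 and 65 of 111 calls (58.6%) and 87 of 205 calls (42.4%) at Tet2. Dnmt1 passed Fisher's exact test (adjusted p = 0.00766) with a difference of 17.7 points, short of the size threshold, and over the gene without flanks Dnmt1 and Uhrf1 were called, by 34.1 and 45.5 points.

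The other genes of the pathway were a list of 38, with readers of methylation, suppliers of its cofactors and repair enzymes. Against H3K4me1, H3K9me3 calls were higher at 15 of 31 tested and lower at 0, with a median difference of 21.1 points, where 66.4% of all genes were higher. The largest differences were at Cxxc4, an inhibitor of Wnt signalling whose CXXC domain binds CpGs, with 77 of 87 calls (88.5%) against 5 of 81 calls (6.17%), at Lig1, the replicative DNA ligase, with 366 of 412 calls (88.8%) against 58 of 180 calls (32.2%), and at Mat2a, which makes S-adenosylmethionine, with 28 of 38 calls (73.7%) against 52 of 226 calls (23.0%). H3K27me3 calls were higher than H3K4me1 calls at 9 of 36 and lower at 0, where 31.6% of all genes were higher. The list was led by Trdmt1, an RNA methyltransferase of the Dnmt family, with 76 of 82 calls (92.7%) against 13 of 39 calls (33.3%). Lig1 and Apobec1 followed, with differences of 53.2 and 44.0 points. Against H3K9me3, H3K27me3 calls were lower at 7 of 32 and higher at 1, Trdmt1, where 29.2% of all genes were lower. None of these 3 counts exceeded the share over all genes. Cxxc4 was the lowest, with 754 of 5028 calls (15.0%) against 77 of 87 calls (88.5%), and Idh2 differed by -48.1 points.

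Promoters of these genes were lower than bodies at 23 of 32 with H3K4me1, 17 of 23 with H3K27me3 and 3 of 4 with H3K9me3, and higher at 0, 1 and 1. Over all genes 73.2%, 69.9% and 63.9% were lower, so the first 2 shares are near the background, and the last rests on 4 genes. Hells, a chromatin remodeller needed for normal DNA methylation, had 1 of 115 calls (0.870%) in the promoter and 165 of 253 calls (65.2%) in the body with H3K4me1. Uhrf2, the paralogue of Uhrf1, had 18 of 167 calls (10.8%) and 75 of 98 calls (76.5%), and Neil1, a repair glycosylase, 3 of 88 calls (3.41%) and 32 of 40 calls (80%). With H3K27me3, Neil3 and Xrcc1, both of base excision repair, differed by -75.3 and -74.1 points. Between the 100000-cell and 250000-cell H3K27me3 libraries, 3 of 37 were lower and 0 higher, Lig1, Trdmt1 and Pcna, by 35.5, 21.5 and 21.1 points. Over all 36864 genes tested, 1.67% were lower and 1.29% higher. These 3 genes rest on few calls, 30 and 55 at Lig1, 59 and 82 at Trdmt1, and 63 and 69 at Pcna.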

How the data were processed

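CUT&Tag-BS libraries of E14 cells were compared at 9 loci. The deposited tables gave, per CpG of mm10 and sample, counts of methylated calls and of all calls, from which unmethylated calls were taken by subtraction, and the authors also deposited peak lists per sample and a unified list per mark. Cutadapt 1.12, Bismark 0.23.0, Bowtie2 2.3.0, HOMER 4.10.3, bedtools 2.29.2 and mm10 are named in the submitters' processing notes, without roles. Gene positions and sequences came from the RefSeq table of GRCm38.p6, the assembly that mm10 is made from. All 407620 CpGs of its promoter sequences were rows of the deposited count table.

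The calls per library are 4917718 and 9690770 for H3K4me1 run 1 and run 2, 2012835 and 6355757 for H3K9me3, and 378056, 5019897, 24468360 and 37177077 for H3K27me3 from 4000 to 250000 cells. Calls were summed over each locus, promoter (1000 bp on each side of a start), gene body without promoter, peak and CpG cluster (500 bp windows with at least 25 CpGs, merged). Fisher's exact test, two-sided, was run on genes with at least 20 calls in both sets and adjusted by Benjamini-Hochberg over all genes. The scripts were tested on simulated data. Python 3.11.15, numpy 2.4.6, scipy 1.17.1 and pandas 2.3.3 were used.

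The members and lists were chosen with earlier results of these data known. All members are named, with all CpG clusters, the peak with the most calls per mark and locus, and up to 3 other pathway genes per comparison with the largest called differences. Alternatives with protein-coding genes only and with the most upstream start were chosen after seeing the data.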

Additional observations from a re-analysis of the deposited data

How the results depend on the processing

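For H3K9me3 against H3K4me1, the 5 members called higher became 1 at shared CpGs, 3 with each CpG as 1 call and 3 over the gene without flanks, 6 with runs summed, and 4 to 5 with either run alone. For H3K27me3 against H3K4me1, the 0 called higher became 1 with each CpG as 1 call and 2 at 10 points. For H3K27me3 against H3K9me3, those higher ranged from 0 to 1 with either run alone and were 1 with runs summed, and the 3 lower became 1 with each CpG as 1 call and 5 at 10 points, and 3 to 4 with either run. For promoter against body, the most upstream start gave 1 higher with H3K4me1 and 1 with H3K27me3, and the 9 lower with H3K27me3 became 5 of 5 tested at 50 calls or more and 3 of 5 tested with 100000 cells, where fewer genes were tested. Between 100000 and 250000 cells, 2 were higher over the gene without flanks and 1 at 10 points. For promoter against body with H3K9me3, run 1 alone and the minimum of 50 calls left no member to test.

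Single members changed sign as follows, in points, and the cause was not tested. At shared CpGs, Uhrf1 turned to 12.5 for H3K9me3 against H3K4me1. For H3K27me3 against H3K4me1 at shared CpGs, Dnmt3l was -1.92, Uhrf1 3.90, Tet3 -3.87 and Tdg -0.941. For that comparison Dnmt3l was -0.743 with run 1 and -0.0928 with runs summed, Dnmt1 -7.15 and Dnmt3a 7.25 with each CpG as 1 call, and Dnmt3b -17.1 and Tdg -9.10 over the gene without flanks. For H3K27me3 against H3K9me3, Uhrf1 was 2.12 with runs summed, and Dnmt3l 3.13 with each CpG as 1 call and 1.11 without flanks. For that comparison Dnmt3b, with too few calls to test, was 30.3 at shared CpGs. With the most upstream start, Dnmt3l was 23.4 with H3K4me1 and 36.5 with H3K27me3. Between 100000 and 250000 cells, Dnmt3b was 0.163 and Tdg 11.3 at shared CpGs, Uhrf1 45.5 without flanks and Tet3 -4.66 with each CpG as 1 call. Under 20 calls a level was given as counts only, which limits H3K9me3 promoters and H3K27me3 from 4000 cells. No paired analysis was possible because the labels number runs, not samples, and each test compares the calls of 2 libraries with no replicate samples to block on. The values within each run stand above.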
